A study of Mus musculus with 20 samples.

Results

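The genes described here encode the core of TGFB signalling, namely the ligands Tgfb1, Tgfb2 and Tgfb3, the receptors Tgfbr1, Tgfbr2 and Tgfbr3, and the Smad proteins Smad2, Smad3, Smad4 and Smad7. They were chosen by name, and all 10 were among the 14299 genes of the count table. They were followed in mouse ovarian surface epithelial (OSE) cells, the single layer of cells that covers the ovary, grown as primary cultures. Both groups spent 48 h in hormone-free medium and then 15 days with either 100 nM of the estrogen E2 or the same volume of its vehicle, ethanol at 0.0002% (control). The strain and age of the animals behind the cultures were not given in the sources used here. Each group was loaded as 1 suspension through 1 inlet of a Fluidigm C1 circuit, and each column of the circuit gave 1 library of 3′ reads. The tables used here held 589 cells of 10 control and 9 E2 libraries, with no cell from column 13.

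The study split these cells by consensus clustering into cluster 1, which it describes as unresponsive to E2, and responsive cells. Cluster 1 held 168 cells (126 control and 42 E2), and 421 cells were responsive (203 control and 218 E2). Reads were summed per library and cluster wherever at least 3 cells were present, which gave 10 control and 7 E2 sums for cluster 1, and 10 control and 9 E2 sums for responsive cells. Libraries are columns of 1 circuit, so every p-value below that comes from counts measures the spread between columns, which may be technical. E2 cannot be told apart from the suspension that was loaded. A p-value from the study's imputed values is no measure of that spread, since imputation fills in values from similar cells.

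TGFB ligands are secreted in a latent form and are released by integrins, proteases and matrix proteins. The active ligand binds the type II receptor TGFBR2, which recruits and phosphorylates the type I receptor TGFBR1, and this in turn phosphorylates SMAD2 and SMAD3. These join SMAD4 and enter the nucleus, while SMAD7 is an inhibitor that the pathway itself induces. In epithelia, OSE included, the pathway is known for restraint of proliferation and for epithelial to mesenchymal change.

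Control libraries held 3867791 to 5078340 reads and E2 libraries 2693258 to 4037847. Sums of cluster 1 cells were shallow, with 712140 to 2223981 reads from 8 to 18 cells in control libraries and 233982 to 771449 reads from 3 to 9 cells in E2 libraries. The median mitochondrial share of reads was 2.08% in responsive control cells, 2.43% in responsive E2 cells, 2.53% in cluster 1 control cells and 3.55% in cluster 1 E2 cells. All 40 row positions of the circuit were used in more than 1 library, and no capture site occurred more than once. Of 17 OSE and mesothelium markers, 14 had reads in responsive cells of both groups, at a summed level of 5821 to 7317 CPM (counts scaled to a common library size), and 13 had reads in cluster 1, at 4369 to 7093 CPM. Lhx9, Muc16 and Cdh1 had no value here, and Lgals7 had no read in cluster 1.

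The summed level of markers of other cell types had higher medians in cluster 1 for the stromal, theca and granulosa lists. Ranges over all sums overlapped between the clusters in each list, and E2 library 15 and control library 6 stood apart. Among control libraries alone, the stromal and theca ranges did not overlap between the clusters. Stromal markers there reached at most 2435 CPM in responsive cells and at least 2728 CPM in cluster 1. Theca markers there reached at most 64.5 CPM in responsive cells and at least 74.8 CPM in cluster 1. Among E2 libraries both ranges overlapped. Of 10 stromal fibroblast markers, Lum, Fap and Postn had no value here. The summed level of the other 7 ran from 1741 to 4714 CPM over all responsive sums and from 2728 to 10507 CPM over all cluster 1 sums. The highest value of each was E2 library 15, where Dcn alone stood at 2588 CPM in responsive cells and 7085 CPM in the 3 cells of cluster 1. Smooth muscle and pericyte markers reached 1343 CPM in cluster 1 of control library 6, against at most 57.8 CPM in the other control libraries. In control library 6, 1162 CPM was Tagln and the rest was Acta2. Myh11, Rgs5, Pdgfrb and Cnn1 had no value here. Theca markers stood at 15.3 to 137 CPM in responsive sums and 74.8 to 599 CPM in cluster 1, with no value for Cyp17a1, Hsd3b1 and Lhcgr. Granulosa markers stood at 15.2 to 65.2 CPM and 5.32 to 211 CPM, with no value for Fshr, Amh, Cyp19a1, Foxl2 and Hsd17b1. Endothelial markers stood at 469 to 813 CPM and 313 to 670 CPM, with no value for Cdh5, Tek and Emcn. Leukocyte markers stood at 31.0 to 140 CPM and 0 to 111 CPM, with no value for Adgre1, Lyz2 and Cd79a. The part of these cells in the values below was not tested.

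Tgfb3 was the ligand with the most complete record, with a read in 438 of 589 cells and 11597 reads in all. Tgfb2 had a read in 178 cells and Tgfb1 in 14, so only traces of Tgfb1 were captured. Counts of 3′ reads do not allow the levels of different genes to be ranked, and the comparisons below are between groups of cells for 1 gene at a time. Tgfb3 lies at chr12:86056745-86079041 on the minus strand and Tgfb2 at chr1:186622792-186705989 on the minus strand of GRCm38, and both share exon positions with genes annotated on the opposite strand that had no value here. Whether reads were assigned by strand was not given in the sources used here, so reads of such partners cannot be told apart from those of the ligands.

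**Figure D1:**
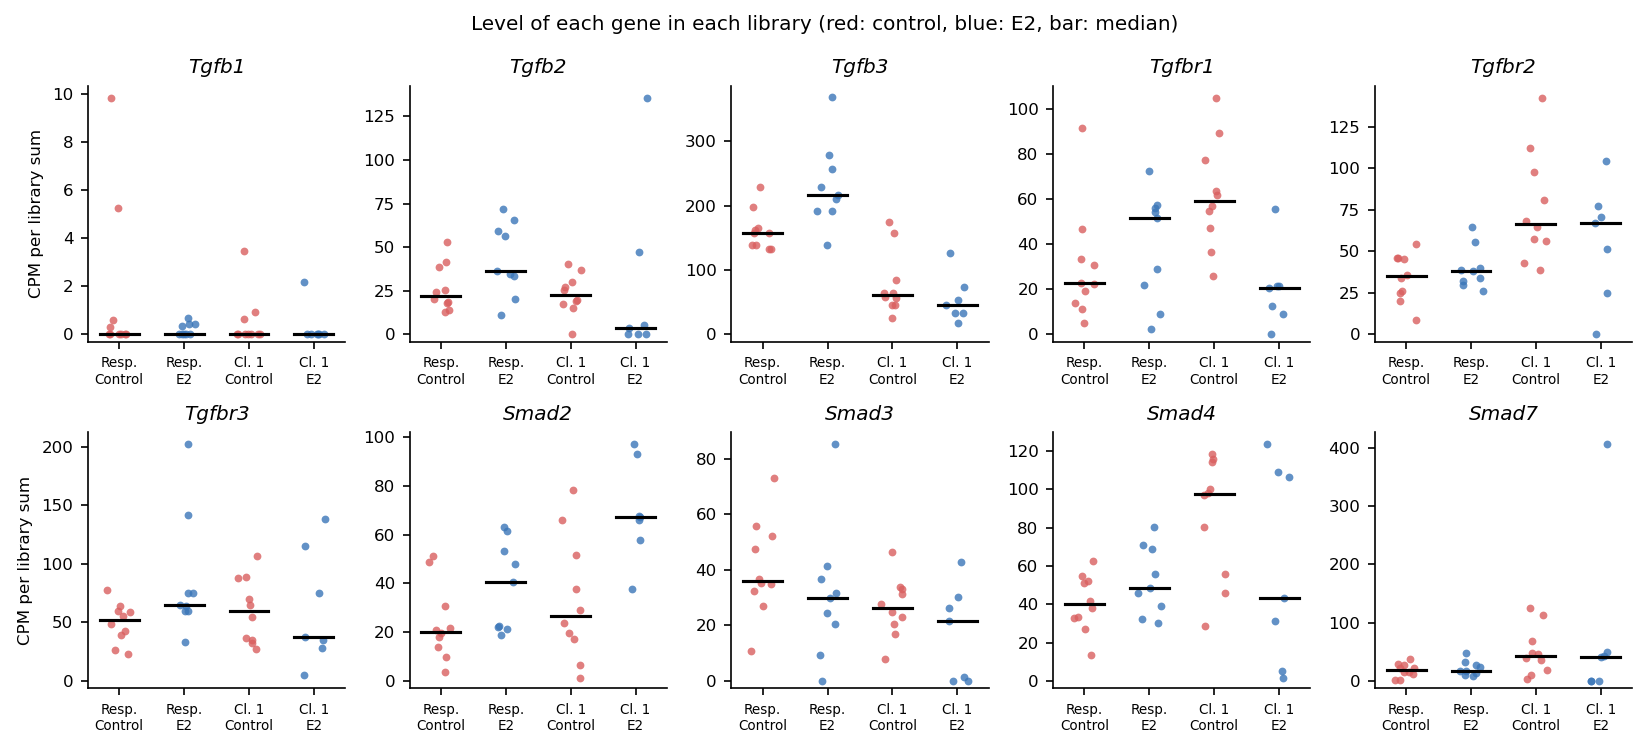
Level of each of the 10 genes in CPM (linear axis, own scale per gene) in each library sum, for responsive (Resp.) and cluster 1 (Cl. 1) cells of control (red) and E2 (blue) libraries, with the median as a bar. Tgfb3 sits at 132 CPM or above in the responsive control libraries and at 175 CPM or below in cluster 1 control libraries, and 1 cluster 1 E2 library stands far above the rest for Tgfb2 (136 CPM) and 1 for Smad7 (406 CPM).

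In responsive cells, none of the 9 genes that passed the filter on low counts was called for E2 against control, where a call needs a log2 fold change of more than 0.5 in either direction with a p adjusted by Benjamini-Hochberg under 0.05. The background was 141 of 10265 genes called (1.37%), with 87 higher with E2 (0.848%) and 54 lower (0.526%). At an unadjusted p below 0.05 there were 2 members, Tgfb3 and Tgfbr3, among 1015 genes in all, and DESeq2 and limma-voom also called 0 members. 8 of the 9 fold changes were above 0, beside 52.0% of all genes tested. The median log2 fold change was 0.40 beside 0.02 over all genes tested. Tgfb1 did not pass the filter and was not tested.

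Tgfb3 in responsive control cells ran from 132 to 229 CPM over libraries with a median of 158 CPM, and in responsive E2 cells from 139 to 368 CPM with a median of 216 CPM. 8 of 9 E2 libraries lay above the control median and 4 above the highest control library, while the ranges overlapped. The log2 fold change was 0.51 (SE 0.16), and its adjusted p of 0.146 by edgeR's quasi-likelihood test did not pass. E2 library 15, which also had the highest stromal markers, gave the highest level, and without it the log2 fold change was 0.41. Over the alternatives the adjusted p ran from 1.39e-15, by limma with the imputed values, to 0.475, with as many responsive cells as cluster 1. With the imputed values, taken as log2, the change was 0.37 and so under the size needed for a call. That p of 1.39e-15 does not measure the spread between columns.

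Tgfb2, whose latent form lacks the integrin-binding motif of the other ligands, ran from 12.7 to 52.8 CPM with a median of 22.3 CPM in responsive control cells and from 11.1 to 71.7 CPM with a median of 36.6 CPM in responsive E2 cells. 4 E2 libraries exceeded every control library, but the lowest library of all was also an E2 library. The log2 fold change was 0.69 (SE 0.35) with an adjusted p of 0.544. Tgfb1 gave 45 reads in 5 of 203 responsive control cells, 24 of them in 1 cell, and 5 reads in 4 of 218 responsive E2 cells, so it was at 0 in 6 of 10 control and 5 of 9 E2 libraries. At this depth a difference in Tgfb1 was not detectable, since a count of 0 allows up to 3 reads.

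Among the receptors, Tgfbr3 (betaglycan), a co-receptor that presents ligand to the signalling receptors, showed the largest estimate in responsive cells. Its control libraries ran from 23.0 to 77.6 CPM with a median of 52.2 CPM, and its E2 libraries from 33.4 to 203 CPM with a median of 65.3 CPM. 8 of 9 E2 libraries lay above the control median, yet most of them stayed within the control range and 2 lay above it. The log2 fold change was 0.79 (SE 0.29, adjusted p = 0.289), and without E2 library 15, the highest, it was 0.53. Tgfbr3 shares exon positions at chr5:107106570-107289629 with another annotated gene of the same strand that had no value here.

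Tgfbr1, the type I receptor, spread widely in both groups of responsive cells. It ran from 5.17 to 91.7 CPM (median 22.6 CPM) in control libraries and from 2.54 to 72.8 CPM (median 51.7 CPM) in E2 libraries, with a log2 fold change of 0.40 (SE 0.49) that was 0.78 without control library 1, the highest. Tgfbr2, the type II receptor that binds ligand first, ran from 8.60 to 54.2 CPM (median 34.9 CPM) and from 25.9 to 65.0 CPM (median 38.3 CPM), with a log2 fold change of 0.22 (SE 0.31). The ranges of both genes lay over each other, and their adjusted p-values of 0.897 and 0.908 did not pass.

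The Smads of responsive cells gave no call either. Smad2 ran from 3.71 to 51.4 CPM (median 20.2 CPM) in control and from 18.9 to 62.9 CPM (median 40.6 CPM) in E2 libraries, with a log2 fold change of 0.71 (SE 0.40, adjusted p = 0.612). Its partner Smad3 was the only member with an estimate below 0, at a log2 fold change of -0.39 (SE 0.48), from 10.7 to 73.1 CPM in control and from 0 to 85.2 CPM in E2 libraries. Smad4, the shared partner of the receptor-activated Smads, ran from 13.7 to 62.5 CPM (median 39.9 CPM) in control and from 30.3 to 80.5 CPM (median 48.7 CPM) in E2 libraries (log2 fold change 0.36, SE 0.28). Smad7, the inhibitor, ran from 1.11 to 37.5 CPM and from 8.98 to 48.4 CPM (log2 fold change 0.28, SE 0.51). Every one of these ranges overlapped between control and E2, and the adjusted p-values of Smad3, Smad4 and Smad7 were 0.896, 0.786 and 0.929.

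**Figure D2:**
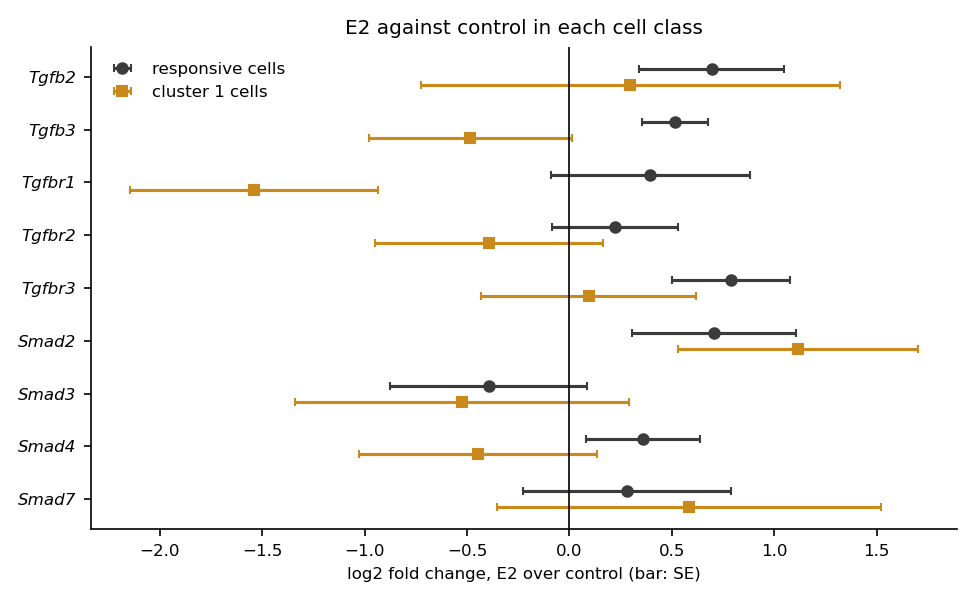
Log2 fold change of E2 over control for the 9 genes tested, in responsive cells (circles) and cluster 1 cells (squares), with bars of 1 standard error. Bars are short for Tgfb3 in responsive cells (SE 0.16) and long in cluster 1 (SE up to 1.02), and no gene was called in either class.

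In cluster 1 cells, the same 9 genes were tested and 0 were called, against a background of 7 of 8340 genes (0.0839%). At an unadjusted p below 0.05 there was 1 member, Tgfbr1, among 622 genes in all, and DESeq2 and limma-voom called 0 members. The median log2 fold change was -0.39, beside -0.06 over all genes tested. There were 4 members above 0 and 5 below, while 46.4% of all genes tested were above 0. These sums held few cells, and the standard errors of the members ran up to 1.02.

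Tgfbr1 had the most negative estimate. It ran from 25.9 to 105 CPM (median 59.4 CPM) in the 10 control libraries of cluster 1 and from 0 to 55.7 CPM (median 20.7 CPM) in the 7 E2 libraries. Every E2 library lay below the control median, though the highest E2 library, 19, was within the control range and took all of its reads from 1 cell. The log2 fold change was -1.54 (SE 0.60, adjusted p = 0.530), and it reached -2.01 without library 19.

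Smad2 had the most positive estimate in cluster 1. It ran from 1.33 to 78.2 CPM (median 26.4 CPM) in control libraries and from 37.9 to 97.1 CPM (median 67.2 CPM) in E2 libraries, with a log2 fold change of 1.12 (SE 0.58, adjusted p = 0.706). All 7 E2 libraries lay above the control median, and 2 lay above every control library. The reads behind the E2 values were few, 265 over 14 of 42 cells.

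The other members of cluster 1 had estimates that rested on single cells or were close to their errors. Tgfb3 ran from 25.9 to 175 CPM (median 61.5 CPM) in control and from 18.1 to 127 CPM (median 46.1 CPM) in E2 libraries (log2 fold change -0.48, SE 0.49). Tgfb2 was at 0 in 3 of 7 E2 libraries and at 136 CPM in library 20, where 1 cell held 92.6% of its 54 reads, and its estimate turned from 0.30 (SE 1.02) to -1.24 without that library. Smad7 was at 0 in 3 E2 libraries and at 406 CPM in library 15, where 1 of 3 cells held all 78 reads, and its estimate turned from 0.59 (SE 0.94) to -1.16 without it. These libraries held so few cells that 1 cell could set a level.

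The remaining receptors and Smads of cluster 1 overlapped widely between control and E2. Tgfbr2 ran from 38.5 to 143 CPM (median 66.3 CPM) in control and from 0 to 104 CPM (median 67.3 CPM) in E2 libraries, with a log2 fold change of -0.39 (SE 0.56). Tgfbr3 ran from 27.4 to 106 CPM (median 59.9 CPM) and from 5.21 to 138 CPM (median 37.2 CPM), with a log2 fold change of 0.09 (SE 0.53). The medians of Tgfbr2 lay side by side, and E2 libraries of Tgfbr3 lay both below and above the control range. Smad3 ran from 7.98 to 46.4 CPM (median 26.2 CPM) and from 0 to 42.7 CPM (median 21.7 CPM), with a log2 fold change of -0.53 (SE 0.82). Smad4 ran from 28.4 to 118 CPM (median 97.7 CPM) and from 1.69 to 123 CPM (median 43.4 CPM), with a log2 fold change of -0.45 (SE 0.58). None of these changes, nor those of Tgfb2, Tgfb3 and Smad7, exceeded the spread between libraries, and their adjusted p-values in cluster 1 by edgeR's quasi-likelihood test ran from 0.926 for Tgfb3 to 0.989 for Tgfbr3.

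Whether the E2 change differed between cluster 1 and responsive cells was tested as an interaction over all 36 sums. The main fits of the interaction and of the cluster difference below did not pair the sums of a library. None of the 9 members was called, against 21 of 11398 genes (0.184%), and at an unadjusted p below 0.05 there were 2 members, Tgfbr1 and Tgfb3, among 1244 genes. DESeq2 and limma-voom called 0 members. For Tgfbr1 the log2 fold change in cluster 1 minus that in responsive cells was -1.98 (SE 0.75, adjusted p = 0.288). For Tgfb3 this difference was -1.04 (SE 0.44, adjusted p = 0.349). It was -0.46 (SE 1.00) for Tgfb2, -0.67 (SE 0.60) for Tgfbr2, -0.74 (SE 0.56) for Tgfbr3 and -0.86 (SE 0.62) for Smad4. For Smad2, Smad3 and Smad7 it was 0.36 (SE 0.69), -0.19 (SE 0.88) and 0.25 (SE 1.08). Thus 7 of 9 estimates were below 0 and 2 above, while 41.1% of all genes tested were above 0. The median over all genes tested was -0.19. With the library as a block, no gene of the whole table was called.

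The comparison of cluster 1 with responsive cells is a description, because these same cells and genes went into the clustering. Of the 9 members, 2 were past the fold, taken as a log2 difference of more than 1 in either direction, against 2354 of 10597 genes (22.2%). Tgfb3 was lower in cluster 1, as were 1419 genes (13.4%), and Smad7 was higher, as were 935 genes (8.82%). The share of members is the same 22.2% as the background, so nothing is read from the count itself.

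Tgfb3 had the most even difference. In cluster 1 it stood at 68.4 ± 44.7 CPM (SD, n = 17 libraries with both kinds of sum) and in responsive cells of the same libraries at 192 ± 63.9 CPM. It was lower in cluster 1 in 16 of 17 libraries, the exception being 1 control library, number 1, with 175 CPM in cluster 1 and 157 CPM in responsive cells. The log2 difference was -1.50 (SE 0.24), and it stayed between -1.65 and -1.41 with any 1 library left out.

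Smad7 was higher in cluster 1 by a log2 difference of 1.57 (SE 0.53), but the size rested on 1 library. It stood at 61.5 ± 96.0 CPM in cluster 1 and 20.7 ± 12.4 CPM in responsive cells, and was higher in cluster 1 in 12 of 17 libraries. Without E2 library 15 the log2 difference was 0.95, which is under the fold used here. Among control libraries alone, Smad7 ran from 2.57 to 125 CPM (median 43.0 CPM) in cluster 1 and from 1.11 to 37.5 CPM (median 18.2 CPM) in responsive cells, and 8 of 10 were higher in cluster 1.

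Tgfbr2 and Smad4 were also higher in cluster 1 in most libraries, though under the fold. Tgfbr2 was at 68.1 ± 34.0 CPM against 37.3 ± 13.98 CPM and higher in 14 of 17 libraries, with a log2 difference of 0.86 (SE 0.30). Smad4 was at 75.0 ± 41.7 CPM against 45.6 ± 17.8 CPM and higher in 12 of 17 libraries, with a log2 difference of 0.70 (SE 0.31). Smad2 was higher in 13 of 17 libraries, with a log2 difference of 0.62 (SE 0.34). Smad3 went the other way, at 22.8 ± 13.9 CPM in cluster 1 against 38.0 ± 20.9 CPM, lower in 13 of 17 libraries with a log2 difference of -0.69 (SE 0.43). The receptor-activated pair Smad2 and Smad3 thus differed in sign between the clusters, each by less than 2 of its standard errors.

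The remaining members showed little or no separation of the clusters. Tgfbr1 was higher in cluster 1 in 9 of 10 control libraries but in 2 of 7 E2 libraries, and its log2 difference over all sums was 0.24 (SE 0.42). Tgfbr3 stood at 61.0 ± 36.7 CPM in cluster 1 and 66.0 ± 43.9 CPM in responsive cells, with a log2 difference of -0.04 (SE 0.29), or from -0.14 to 0.16 with 1 library left out. Tgfb2 had a log2 difference of -0.42 (SE 0.49), and Tgfb1 had reads in too few cells to compare.

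**Figure D3:**
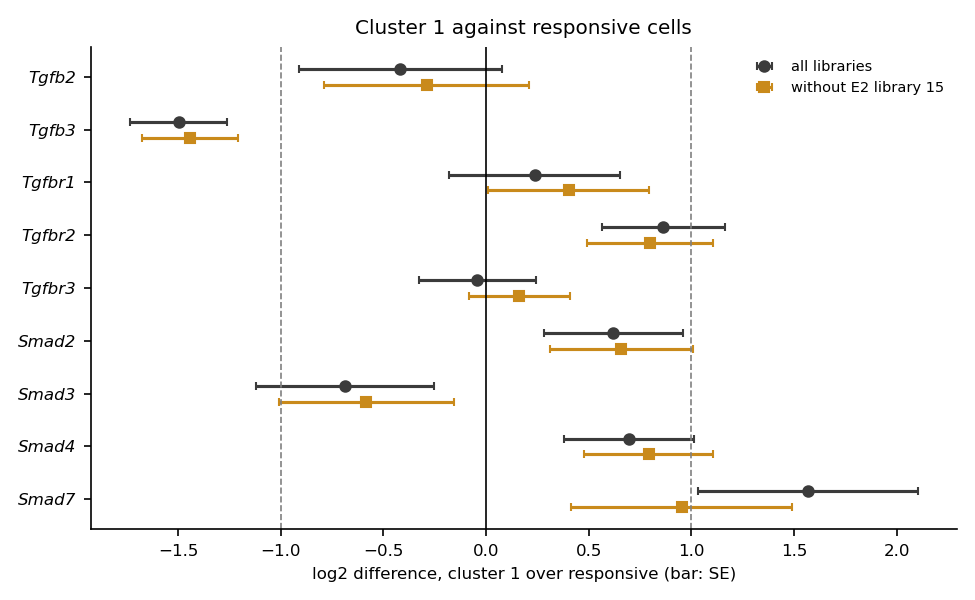
Log2 difference of cluster 1 over responsive cells for the 9 genes fitted, with bars of 1 standard error, over all libraries (circles) and without E2 library 15 (squares). Dashed lines mark a log2 difference of 1 in each direction. Tgfb3 lies beyond the lower line in both, and Smad7 falls from 1.57 to 0.95.

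Between the clusters, the share of cells with a read of Tgfb3 had the same order as its level. It had a read in 84.2% ± 9.71 (SD, n = 10 libraries) of responsive control cells and 81.4% ± 9.32 (n = 9) of responsive E2 cells, against 56.4% ± 23.4 (n = 10) and 58.0% ± 21.0 (n = 7) of cluster 1 cells. Depth per cell differed between these classes, with medians of 143233, 117809, 112126 and 87632 reads, so each cell was thinned to 20000 reads. The thinned shares of Tgfb3 were 69.9%, 73.5%, 35.2% and 41.4% in the same order, so the lower share in cluster 1 was also seen at equal depth. Between control and E2 the means of level and of share at full depth lay in opposite orders in both classes of cells.

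Smad4 and Tgfbr2 had the opposite order at equal depth. Smad4 had a read in 24.4% and 26.5% of thinned responsive control and E2 cells, and in 38.4% and 44.8% of thinned cluster 1 cells. For Tgfbr2 these shares were 28.6%, 27.1%, 42.4% and 38.8%. Smad7 at full depth had a read in 30.3% ± 9.04 (n = 10) of responsive control cells and 19.5% ± 6.69 (n = 9) of responsive E2 cells, while the thinned shares were 15.4% and 15.3%. The part of depth in the first pair was not tested. Errors here are SDs over columns, and no test was made.

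**Figure D4:**
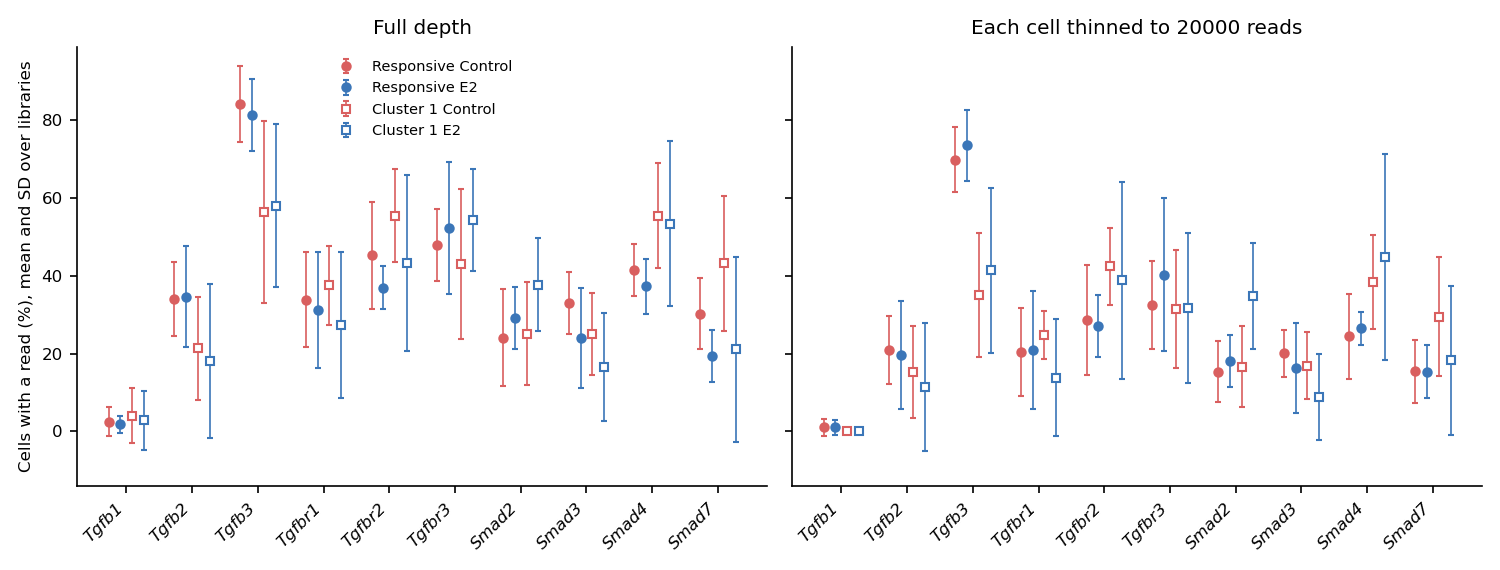
Percent of cells with at least 1 read of each gene, as the mean and SD over libraries, at full depth (left) and with each cell thinned to 20000 reads (right), for responsive cells (filled circles) and cluster 1 cells (open squares) of control (red) and E2 (blue) libraries. At equal depth, Tgfb3 lies at 69.9% and 73.5% in responsive cells and at 35.2% and 41.4% in cluster 1.

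Reads of both signalling receptors in the same cell were found in all 4 classes. Tgfbr1 and Tgfbr2 both had a read in 31 of 203 responsive control cells (15.3%), 30 of 218 responsive E2 cells (13.8%), 31 of 126 cluster 1 control cells (24.6%) and 3 of 42 cluster 1 E2 cells (7.14%). The product of the separate shares gives 15.2%, 11.6%, 21.6% and 10.6%, given as a description with no test. A median of 3 to 4 of the 10 members had a read per cell, and 5, 6, 5 and 0 cells in the same order had a read of none of them.

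Along the trajectory that the study drew through these cells, Tgfb3 differed between states. State 1, the branch with cluster 1 and 22 responsive control cells, held Tgfb3 at 82.2 ± 52.9 CPM in control (n = 10 libraries) and 54.4 ± 34.9 CPM in E2 sums (n = 7). State 2, with 143 control and 4 E2 cells, held it at 166 ± 34.5 CPM in control (n = 10), and state 5, made of 151 E2 cells, at 259 ± 98.3 CPM (n = 9). In E2 cells it stood at 211 ± 98.01 CPM in state 4 (n = 8) and 146 ± 110 CPM in state 6 (n = 5, 15 cells). Ordered by level, the neighbouring states 5, 4, 2 and 6 each lay apart from the next by less than the larger of their SDs, and control state 1 lay below control state 2 by more than either SD.

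Other members were less ordered along the trajectory. Tgfbr2 was at 70.8 ± 26.8 CPM in control state 1, 32.6 ± 17.3 CPM in state 2 and 31.7 ± 18.4 CPM in state 5, but at 63.8 ± 43.5 CPM in E2 state 4. Smad4 was at 75.6 ± 28.7 CPM in control state 1, 41.1 ± 17.6 CPM in state 2 and 58.2 ± 30.3 CPM in state 5. Smad7 was at 48.5 ± 39.6 CPM, 20.3 ± 14.1 CPM and 19.7 ± 18.8 CPM in the same 3 groups. States come from the same cells and genes, so these values are descriptions.

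The wider pathway was read from 6 lists of 130 genes in all, of which 100 had a value, and 78 were tested for E2 in responsive cells. edgeR called 2 of the 78 (2.56%), 1 in each direction, beside 1.37% of all genes, and DESeq2 called 4, 1 higher and 3 lower. At an unadjusted p below 0.05 there were 17 of the 78 (21.8%), beside 9.89% of all genes. Both genes called by edgeR are extracellular modulators. Twsg1, a BMP-binding protein that can act as agonist or antagonist, rose from 52.4 ± 20.9 CPM (SD, n = 10) to 105 ± 33.5 CPM (n = 9), with a log2 fold change of 0.99 (SE 0.25, adjusted p = 0.0362). Bgn (biglycan), a matrix proteoglycan that binds TGFB ligands, fell from 721 ± 94.7 CPM to 492 ± 88.3 CPM, with a log2 fold change of -0.56 (SE 0.12, adjusted p = 0.0126). The call of Bgn held with each of 19 libraries left out, while that of Twsg1 held in 8 of these 19 fits, with an adjusted p of up to 0.0739. Twsg1 lost its call without control library 1, 2, 3, 7, 8 or 9, or without E2 library 12, 14, 15, 18 or 19, at log2 fold changes of 0.87 to 1.00. Over the alternatives, Bgn was called in 6 of 8 and Twsg1 in 5 of 8. Of these, the minimum of 5 cells per sum repeats the main fit, since every responsive sum held at least 15 cells.

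The lists of latency and activation genes (11 tested), other superfamily receptors (8), other superfamily ligands (6), other Smads and nuclear partners (20) and TGFB target genes (27) had 0 calls for E2 in responsive cells by edgeR. DESeq2 also called the target genes Timp1, a metalloprotease inhibitor, at a log2 fold change of -0.74 (adjusted p = 0.0219) and Ccn2 at -1.25 (adjusted p = 0.0476), which are named here after their values were seen. In edgeR, Timp1 was called without control library 1, E2 library 11 or E2 library 17. Among the target genes, Sparc was called with as many responsive cells as cluster 1. The median log2 fold change of the target genes was -0.15, with 10 of 27 above 0. Over all genes the median was 0.02, with 52.0% above 0. In cluster 1, 0 of 68 pathway genes tested were called by edgeR, DESeq2 or limma-voom, with 7 (10.3%) at an unadjusted p below 0.05, beside 7.46% of all genes. In the interaction, 0 of 86 were called by any of the 3 tools, with 14 (16.3%) at an unadjusted p below 0.05, beside 10.9% of all genes.

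Between cluster 1 and responsive cells, 26 of 82 pathway genes were past the fold, 10 of them higher in cluster 1 and 16 lower, beside the 22.2% of all genes. The balance moved with the fit, from 12 higher and 11 lower with DESeq2 to 9 and 26 with the library as a block, and it was 6 and 2 of 100 with the imputed values. The differences reached far beyond those of the members themselves. In the list of latency and activation genes, 4 of 14 were higher and 1 lower, beside 8.82% and 13.4% of all genes. The study itself reported Mmp2 and Ltbp2 as high in cluster 1, and the list was chosen with such results known, so nothing is read from this count. Mmp2, a matrix metalloprotease, was at 248 ± 91.7 CPM in cluster 1 control sums (n = 10) and 1.44 ± 0.79 CPM in responsive control sums (n = 10), a log2 difference of 7.01 (SE 0.45). Ltbp2, a latent TGFB binding protein that the study used as a marker of cluster 1, had a log2 difference of 5.32 (SE 0.52), and Thbs1 (thrombospondin 1), an activator of latent TGFB, one of 4.66 (SE 0.60). Emilin1, a matrix glycoprotein that limits processing of the TGFB precursor, was lower at -1.47 (SE 0.61), as were Itgb8, the beta subunit of an integrin that releases active TGFB, at -0.93 (SE 0.51) and the membrane protease Mmp14 at -0.80 (SE 0.32), both under the fold.

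The list of TGFB target genes was not divided by the direction in which TGFB moves each gene. Its counts therefore do not show whether the targets moved as 1 block between the clusters. Of 30 fitted, 6 were higher in cluster 1 and 8 lower, beside 8.82% and 13.4% of all genes. The median log2 difference was -0.06, the same as over all genes. The study reported that a hallmark gene set for TGFB signalling scored much higher in its unresponsive cluster. That score was taken per cell, against control genes of matched expression. It was not computed here, so the reported difference in score was not tested. Col1a2, a chain of type I collagen, was at 1902 ± 349 CPM in cluster 1 control sums and 14.7 ± 18.1 CPM in responsive control sums, a log2 difference of 7.26 (SE 0.37). It was followed by Ltbp2 and by Id2, an inhibitor of helix-loop-helix factors, at 4.85 (SE 0.81). On the other side lay Lox, which cross-links collagen, at -4.16 (SE 0.58), the cell cycle inhibitor Cdkn2b at -4.01 (SE 0.75) and Myc at -3.99 (SE 0.71). Col1a2 is also on the list of stromal fibroblast markers, whose summed level in control libraries was 2006 to 2435 CPM in responsive cells and 2728 to 4451 CPM in cluster 1. The stromal markers did not move together, with 1 of 7 past the fold higher (Col1a2) and 2 lower (Thy1 at -4.38 and Col3a1 at -1.26).

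Among the extracellular inhibitors and the other ligands, genes lay on both sides. Over all genes, 8.82% were past the fold on the higher side and 13.4% on the lower. Of 5 inhibitors and decoys fitted, 2 were past the fold, Bgn at -1.17 (SE 0.13) and Fstl1, a follistatin-like glycoprotein, at -1.01 (SE 0.38), which came to -0.88 without E2 library 16, with the BMP-binding Bmper at -0.89 (SE 0.52), Twsg1 at -0.14 (SE 0.30) and Dcn (decorin), a proteoglycan that binds TGFB, at 0.41 (SE 0.17). Among other ligands, Inha, the inhibin alpha subunit, was higher by 1.60 (SE 0.44), with Bmp4 at 1.00 (SE 0.29) and the activin and inhibin subunit Inhbb at 0.50 (SE 0.59), or -0.14 without E2 library 11, whereas Gdf6 was lower at -2.75 (SE 0.90) and Bmp1, a procollagen protease, at -1.59 (SE 0.84). The estimate of Gdf6 came from 4.60 ± 5.14 CPM in responsive control sums and no read in cluster 1 E2 sums.

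Other receptors and nuclear partners differed little between the clusters. None of the 8 other superfamily receptors was past the fold, from -0.71 (SE 0.76) for the BMP co-receptor Rgmb, -0.47 (SE 0.50) for Nrp1 and -0.41 (SE 0.38) for Acvr1 to 0.12 (SE 0.51) for Acvr1b, 0.38 (SE 0.71) for Acvr2a and 0.91 (SE 0.73) for Acvr2b. Among 20 other Smads and nuclear partners, 3 were past the fold and all were lower in cluster 1, where 13.4% of all genes were lower. These were the corepressor Tgif1 at -1.10 (SE 0.47), the ubiquitin ligase Nedd4l at -1.04 (SE 0.52) and the BMP-activated Smad1 at -1.03 (SE 0.67), while the ubiquitin ligases Wwp1 and Smurf2 and the SMAD anchor Zfyve9 were the highest at 0.91 (SE 0.65), 0.74 (SE 0.39) and 0.69 (SE 0.54). The 3 lower genes each came under the fold with single libraries left out, at the least to -0.92 for Tgif1 without E2 library 16, -0.87 for Nedd4l without E2 library 19 and -0.73 for Smad1 without E2 library 15. Smurf2 was at 0.17 without E2 library 15.

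**Figure D5:**
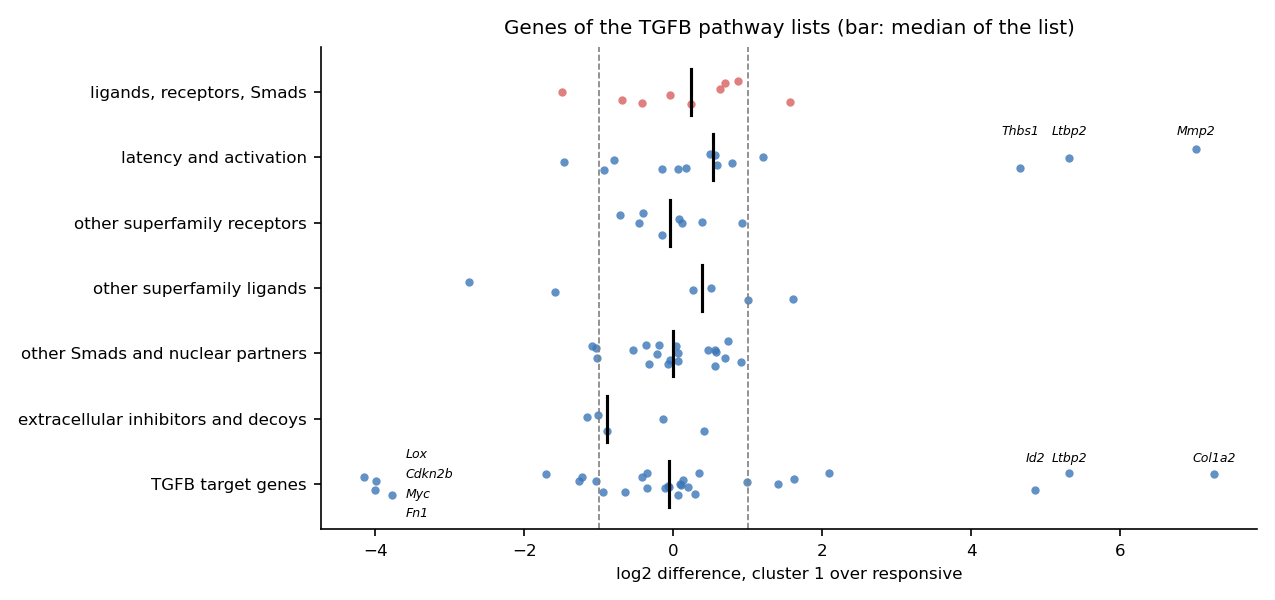
Log2 difference of cluster 1 over responsive cells for the 9 members fitted (red) and for the genes of the 6 pathway lists (blue), 1 point per gene, with the median of each list as a bar and dashed lines at a log2 difference of 1 in each direction. Genes beyond 3 in either direction are named, and none of the members lies there.

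The genes whose levels followed a member most closely were found over the 36 sums of library and cluster among 10597 genes, as a description, since sums share libraries, clusters and depth. Tgfb3 was most like Nlrc3 (Pearson r = 0.86), Cfi (0.85), a complement protease, and Igfbp4 (0.83), a binding protein for insulin-like growth factors. Tgfb2 was most like Cars (r = 0.88), Pnrc2 (0.84) and Nt5c (0.79). These are the highest values of any member, and Tgfb2 was at 0 in 4 of the 36 sums.

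For receptors the closest genes had lower values. Tgfbr1 was most like Trappc6a (r = 0.75), Mob1b (0.72) and Arhgef1 (0.69), Tgfbr2 like Nedd9 (0.72), Vps41 (0.71) and Ifi204 (0.70), and Tgfbr3 like Eif1ad (0.76), Cyb5r4 (0.68) and Thoc1 (0.68). For the Smads, Smad2 was most like Gm20721 (r = 0.62), Ube3a (0.60) and Acadm (0.59), Smad3 like Wdr48 (0.77), Ptpra (0.74) and Mpg (0.72), Smad4 like Lpgat1 (0.76), Golga1 (0.75) and Phlda3 (0.75), and Smad7 like Zc3hav1 (0.68), Ubald1 (0.67) and Fam136a (0.66). No member was among the closest genes of another. Between members r ran up to 0.49, for Tgfb2 with Tgfbr3, and down to -0.33, for Smad3 with Smad7.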

How the data were processed

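Single OSE cells of 10 control and 9 E2 libraries were analysed from tables that the authors deposited. The authors quantified reads with kallisto 0.44.0 on GRCm38 (submitters' processing notes), collapsed them to gene level by tximport and removed poor cells and rare genes in scater, which gave the deposited estimated counts, without normalization and without molecular identifiers. The authors also deposited imputed log values, scaled with scran and imputed with MAGIC, the percent of mitochondrial reads, and labels of clusters (SC3, 2 or 3 clusters) and of trajectory states (monocle).

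The base of the imputed values is not given in the sources used here. These deposited values were taken as log2, since over 241 genes detected in at least 99% of cells their slope on log counts was 1.00 for log2 and 1.45 for natural log.

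Here estimated counts were summed per library and cluster (at least 3 cells), rounded, and fitted in edgeR 4.0.16 (R 4.3.3) by its quasi-likelihood test after TMM scaling and filterByExpr, with Benjamini-Hochberg adjustment over all genes tested. Each SE of an edgeR fit was taken as the absolute log2 fold change over the square root of that test's F statistic. This holds for the cluster differences too, where no p is given. Levels are CPM on effective library sizes. Sums held 233982 to 3903973 reads. Fits were tested on simulated data. The members and the gene lists were chosen with earlier results of these data known. Named genes were all members, list genes called for E2, the 3 largest differences between clusters in each direction per list, and the 3 genes most like each member. Symbols came from GENCODE M21 on GRCm38 (14135 of 14299 genes).

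Alternatives were DESeq2 1.42.0, limma-voom (limma 3.58.1), no gene filter, a minimum of 5 cells per sum, 3 clusters, thinning of each cell to 20000 reads, each library left out, the imputed values with limma, the library as a block, and as many responsive cells as cluster 1. For the lists, counts past the fold were also taken in each of these fits.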

Additional observations from a re-analysis of the deposited data

Results flagged for a closer look

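Of 40 groups of libraries (10 genes in 4 groups), 7 held a highest library that stood apart from the rest by Dixon's criterion. In cluster 1 E2 sums these were Smad7 in library 15 (406 CPM, next 49.0 CPM, all 78 reads in 1 of 3 cells), Tgfb2 in library 20 (136 CPM, next 47.1 CPM, 92.6% of reads in 1 of 5 cells), Tgfbr1 in library 19 (55.7 CPM, next 21.7 CPM, all 33 reads in 1 cell) and Tgfb1 in library 16 (2.17 CPM from 1 read, next 0 CPM). In cluster 1 control sums it was Tgfb1 in library 1 (3.48 CPM from 4 reads, next 0.917 CPM). In responsive cells they were Tgfbr1 in control library 1 (91.7 CPM, next 46.6 CPM, 35.9% of 256 reads in 1 of 20 cells) and Smad3 in E2 library 16 (85.2 CPM, next 41.5 CPM, 17.5% of 194 reads in 1 of 25 cells). Chance reaches Dixon's criterion in about 1 group in 20 where values are normal. The levels here include many at 0 and sums of few cells, so that rate does not apply to them. No member passed the test of a difference in the E2 change between the clusters.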

How the results depend on the processing

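The count of members called for E2 was 0 in responsive cells, in cluster 1 and in the interaction under every alternative and with each library left out. These zeros do not all mean the same. With thinned cells, 7 members were tested in responsive cells and 4 in cluster 1. With imputed values some members missed a call by size only. Smad3 in the interaction was at 0.16 with an adjusted p of 2.49e-12 by limma. Smad7 in responsive cells was at -0.047 with 0.000454. The count of members past the fold between clusters was 2, and it was 1 with at least 5 cells per sum, 0 with the imputed values, 3 of 10 without a gene filter, where Tgfb1 was fitted too, and 1 to 3 with a library left out, 1 without E2 library 15 and 3 without E2 library 16, where Tgfbr2 reached 1.04. Control libraries could not be paired with E2 libraries because they share no numbers. Among the fits, only those with the library as a block paired the clusters of a library. Signs of the E2 changes turned as follows, and the cause was not tested. In responsive cells, imputed values gave log2 fold changes of -0.015 for Smad4, -0.047 for Smad7 and -0.064 for Tgfbr2, and as many responsive cells as cluster 1 gave -0.10 for Tgfbr1, -0.68 for Smad4, -0.42 for Smad2 and -0.0067 for Tgfbr3. In cluster 1, Smad7 was at -0.98 with DESeq2, -2.02 with limma-voom, -1.16 with at least 5 cells and -0.039 with imputed values. Tgfbr3 was at -0.072 with limma-voom and -0.048 with imputed values, Tgfb2 at -1.64 with limma-voom and Tgfb3 at 0.057 with imputed values. With a library left out, Smad7 ran from -1.16 to 0.86, Tgfbr3 from -0.23 to 0.27 and Tgfb2 from -1.24 to 0.52. In the interaction, Smad7 was at -2.49 with limma-voom, -0.18 with thinned cells, -1.46 with at least 5 cells and -1.98 with the library block, Smad3 at 0.033 with at least 5 cells and 0.16 with imputed values, Smad2 at -0.078 and Tgfbr2 at 0.023 with imputed values. With a library left out, Smad7 ran from -1.39 to 0.71 and Smad3 from -0.76 to 0.11. Between clusters, with a library left out, Tgfbr3 ran from -0.14 to 0.16, Acvr1b from -0.34 to 0.28 and Inhbb from -0.14 to 0.75. Other fits turned Tgfbr3 (DESeq2, at least 5 cells), Acvr1 (imputed), Acvr1b (limma-voom, imputed, block), Acvr2a (limma-voom) and Inhbb (block). Over all genes, calls in responsive cells (141) were 234 with DESeq2 and 36 with as many cells as cluster 1. Calls in cluster 1 (7) were 52 with DESeq2, 1 without a gene filter, 0 with thinned cells or imputed values, and 1 (without E2 library 19) to 9 (without E2 library 18) with a library left out. Calls in the interaction (21) were 98 with DESeq2, 13 with limma-voom, 10 with thinned cells, 74 with imputed values, 0 with the library block, and 15 (without control library 6) to 44 (without E2 library 16) with a library left out. Genes past the fold (2354 of 10597) were 3141 of 10597 with limma-voom and 3530 of 10597 with the library block. They were 4001 of 14290 without a gene filter, 978 of 6509 with thinned cells and 172 of 14299 with imputed values. Of 80 shares of cells under thinning or a minimum of 2 reads, 18 moved by more than their SD. Shallow cluster 1 sums of E2 cells, with 3 to 9 cells each, limit every statement on E2 in cluster 1, and the intervals cover counting and column spread only.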
